A study of Homo sapiens with 13 samples.

Results

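Interferon-stimulated genes were followed in serum-starved and serum-fed hFOB osteoblasts by mRNA sequencing. The genes were the 53 symbols of a fixed list of interferon-stimulated genes. All 53 were found among the 43836 genes of the count table, and all 53 passed the filter on low counts that left 17092 genes for testing. hFOB is an immortalized line of human fetal osteoblasts, the cells that form bone.

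The 12 libraries analyzed fell into 5 groups. Positive control osteoblasts were grown with 10% fetal bovine serum and the vehicle DMSO (2 libraries), and negative controls with DMSO but no serum (2 libraries). Cells of the remaining groups lacked serum and received 1 mcg/ml of a compound. These were RES (resveratrol, a stilbene; 3 libraries), POG (peonidin-3-O-glucoside, an anthocyanin; 3 libraries) and DEG (2 libraries), an abbreviation that the labels do not spell out. The treatment text of the labels names delphinidin-3-glucoside next to the other compounds without tying that name to DEG. All libraries came from the same cell line and therefore share its genome. No label says that libraries of a group were separate cultures, so p-values measure only the spread between these libraries, which may be technical.

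Cells that sense viral nucleic acid secrete interferons. Type I interferons bind the receptor IFNAR1/IFNAR2 on the same or neighboring cells, the kinases JAK1 and TYK2 phosphorylate STAT2, and STAT2 joins IRF9 in the complex ISGF3. ISGF3 binds the interferon-stimulated response element in promoters and turns on antiviral genes, many of which restrain viral entry, RNA translation or genome replication. In bone, type I interferon is best known as a brake on the formation of osteoclasts, the cells that resorb bone.

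The binding site of ISGF3 can be read in the promoters of several of these genes. RefSeq promoter windows (GRCh38.p14, 250 bases before to 50 bases after the gene's start) matched 44 of the 53 genes by symbol. IRF7, OAS2, OASL, IFIT2, USP18, IFITM2, MX2, PARP10 and TRIM22 were not in that table. For each symbol only the first window of the table was used, and the gene's start is the one of that window. A gene without a match therefore lacked it at that start only, and other starts were not searched. The windows were searched on both strands for the core of the response element, a GAAA followed by any 2 bases and another GAAA, and for TTCNNNGAA, the gamma-activated site, with overlapping matches kept. The core was present in 26 of the 44 windows (59.1%) and in 2.94% of the windows of 11712 tested genes, or 3.65% of all 27305 windows used. TTCNNNGAA was present in 11 of 44 windows (25.0%), against 6.55% of tested genes and 7.88% of all windows. Parts of 4 windows are printed because each holds 2 matches to the core and the genes reappear in the comparisons. IFIT1 and IFIT3 were among the genes lowest with POG and DEG. ISG15 encodes a ubiquitin-like protein, and BST2 showed the largest rise with RES. Capitals mark the matches, which read TTTC, any 2 bases and TTTC where they lie on the opposite strand, and the sequence is given 5′ to 3′ on the strand of the gene.
IFIT1 (chr10:89392373-89392542, plus strand): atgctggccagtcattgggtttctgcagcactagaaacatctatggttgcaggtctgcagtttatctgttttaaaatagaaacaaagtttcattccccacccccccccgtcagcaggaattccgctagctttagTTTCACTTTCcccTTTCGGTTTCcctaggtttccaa
IFIT3 (chr10:89327747-89327916, plus strand): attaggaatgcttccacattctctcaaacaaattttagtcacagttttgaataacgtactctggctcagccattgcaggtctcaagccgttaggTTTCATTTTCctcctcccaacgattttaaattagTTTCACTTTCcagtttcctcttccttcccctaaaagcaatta
ISG15 (chr1:1013247-1013416, plus strand): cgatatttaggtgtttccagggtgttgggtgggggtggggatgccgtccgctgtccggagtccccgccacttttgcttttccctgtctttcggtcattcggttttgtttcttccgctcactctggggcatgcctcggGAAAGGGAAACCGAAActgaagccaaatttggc
BST2 (chr19:17405738-17405767, minus strand): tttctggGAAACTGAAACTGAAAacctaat

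In ISG15 and BST2 the matches overlap and start 113 and 107 bases, or 130 and 124 bases, before the gene's start. In IFIT1 and IFIT3 they lie apart, at 116 and 103 bases and at 156 and 122 bases before it. The window of IRF9 held no match to the core. A match is a description of the letters and not evidence of binding in these cells.

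Over the whole list, transcripts of interferon-stimulated genes were most abundant with RES and less abundant with POG, DEG or serum than in the negative controls. Levels are in CPM, here read counts divided by library totals that TMM normalization had put on a common scale. The sum over the 53 genes was 11037.5 and 11099.6 CPM in the negative controls, about 1.10% of their counted reads. It was 12399.2, 12447.0 and 12388.6 CPM with RES. It was 10027.3, 10003.4 and 9964.5 CPM with POG, 9688.2 and 9671.7 CPM with DEG, and 9496.5 and 9401.2 CPM in the positive controls. The ranges of the 5 groups did not overlap, and all 3 RES libraries lay above every other library. RES had the highest group mean for 50 of the 53 genes, a place it held for 18.7% of all tested genes, and the negative control had it for the other 3. The lowest mean was in the positive control for 29 genes, in DEG for 15 and in POG for 9, against 35.0%, 15.8% and 15.9% of all tested genes. In such bulk RNA, fewer expressing cells and less RNA per cell cannot be told apart.

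**Figure D1:**
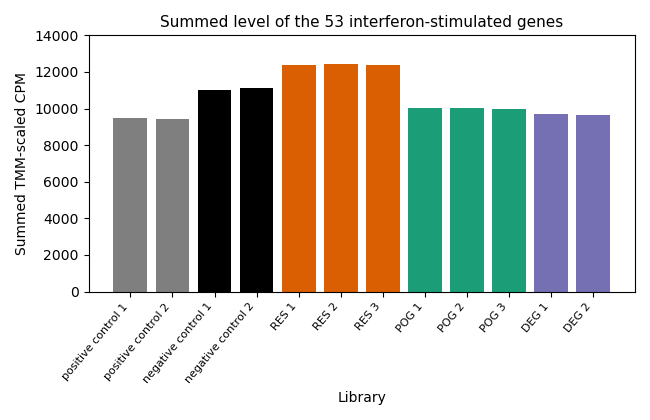
Summed level of the 53 interferon-stimulated genes in each of the 12 libraries, in TMM-scaled CPM. Each bar is 1 library and starts at 0. The RES libraries sit between 12388.6 and 12447.0 CPM, above the negative controls at 11037.5 and 11099.6, while POG, DEG and positive control libraries lie below.

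**Figure D2:**
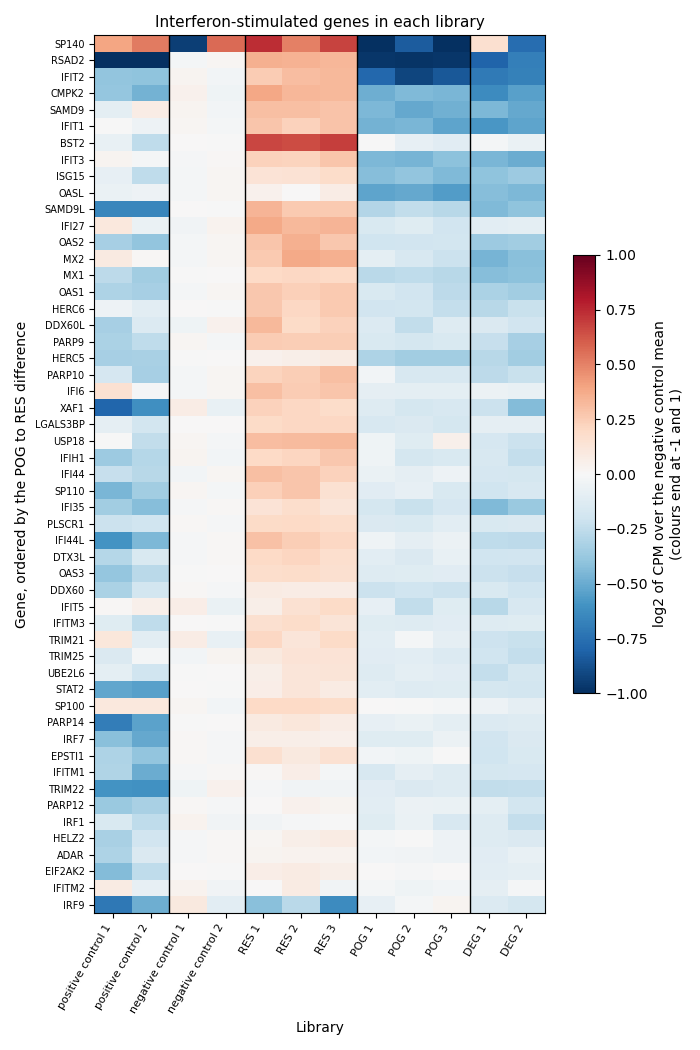
Level of every interferon-stimulated gene in every library as a log2 ratio to the mean of the negative controls, with genes ordered by the difference between POG and RES. Most rows are higher in the 3 RES libraries and lower in the POG, DEG and positive control libraries; IRF9 runs the other way with RES.

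Differences were tested with edgeR's exact test on the raw counts with Benjamini-Hochberg adjustment over all 17092 genes, and genes with a false discovery rate (FDR) under 0.05 were called. Fold changes are on the log2 scale with the standard error (SE) of edgeR's quasi-likelihood fit. To ask what resveratrol did in starved cells, RES was compared with the negative control. 36 interferon-stimulated genes rose and 1 fell, while 4.94% of all tested genes rose and 6.21% fell. The median log2 fold change was 0.20 over the list and 0.0011 over all tested genes. For 44 genes every RES library lay above both negative controls, a pattern that 19.7% of all tested genes showed. Between 30 and 34 of the list's genes were called when 1 library at a time was left out.

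POG and DEG were compared with the same negative controls. With POG, 32 genes fell and 0 rose by the exact test, against 8.57% of all tested genes that fell and 5.93% that rose. By DESeq2, 31 were called. All 53 fold changes were below 0, those of genes not called included, with a median of −0.13 (0.0023 over all tested genes). With these signs no gene could count as a rise at an unadjusted p under 0.05 (0 of 53). With library totals in place of TMM, 50 were below 0, 3 were above it and 24 were called. For 44 genes every POG library lay below both negative controls (22.5% of all tested genes), and for 0 above them (21.6%). The count fell to 21 without negative control replicate 1 and to 19 without negative control replicate 2, where the calls over all genes fell from 2478 to 1362 and 1364. With DEG, 41 genes fell and 0 rose, against 6.11% and 3.52% of all tested genes, a total of 41 against 9.63% in either direction. DESeq2 called 40. The 53 fold changes were again all below 0, so that 0 rises at an unadjusted p under 0.05 were possible. Their median was −0.21 (0.0008 over all tested genes). In 51 genes both DEG libraries lay below both negative controls, a pattern of 26.4% of all tested genes, and in 0 above them (25.4%). The comparisons of RES, POG and DEG with the negative control share its 2 libraries, so their fold changes are not independent.

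The compounds were also compared with each other at the same dose, in 3 pairs. POG against RES gave 47 genes lower and 1 higher, against 14.1% and 13.7% of all tested genes, with a median log2 fold change of −0.34 (−0.0007 over all tested genes). In 51 genes all POG libraries lay below all RES libraries (20.9% of all tested genes). DEG against RES gave 50 genes lower and 1 higher, against 10.8% and 10.3% of all tested genes, with a median of −0.40 (−0.0047 over all tested genes). In 51 genes the DEG libraries lay below all RES libraries (24.2% of all tested genes). The gene higher with each of POG and DEG than with RES was IRF9. These comparisons held 46 to 48 and 48 to 51 calls when 1 library at a time was left out. DEG against POG gave 6 genes lower and 2 higher, against 0.497% and 0.55% of all tested genes (1.05% in either direction), and none of these 8 calls was kept in every alternative analysis.

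**Figure D3:**
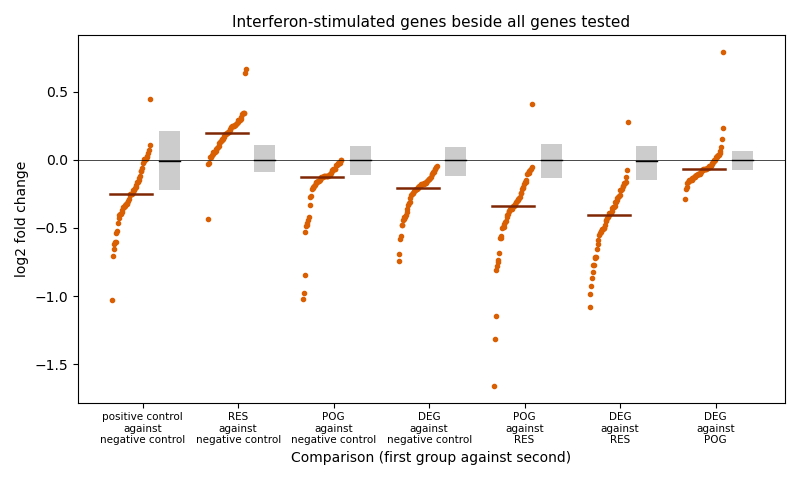
Log2 fold changes of the 53 interferon-stimulated genes beside those of all 17092 tested genes in the 7 comparisons. Points are genes of the list with their median as a line, and grey bars span the middle quartiles of all tested genes. The list's median is −0.25 for serum, 0.20 for RES, −0.13 for POG and −0.21 for DEG against the negative control.

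Serum was the remaining condition, compared as positive against negative control. 38 interferon-stimulated genes were lower with serum and 1 was higher, against 20.9% and 21.4% of all tested genes. The median log2 fold change was −0.25 (−0.0059 over all tested genes), and in 40 genes both positive control libraries lay below both negative controls (32.7% of all tested genes). The positive controls were the less even group: the squared difference between their libraries was 11.05 times that of counting noise, against 2.07 to 2.67 in pairs of the other groups. The test took its dispersions from all 12 libraries, the more even groups included. With dispersions from the groups compared, 35 of the list's genes were called in place of 39. The calls over all genes were then 5926 in place of 7245. The count was 39 to 41 with 1 library left out.

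Of the transcription factors that drive the response, STAT2 encodes a signaling subunit of ISGF3. Its level was 285 and 282 CPM in the negative controls, 298, 308 and 301 with RES, 264, 259.9 and 260.4 with POG, 251 and 249.7 with DEG and 197 and 194 with serum. The groups did not overlap in any of these comparisons. The largest difference from the negative controls was the decrease with serum, −0.53 (SE 0.032, FDR = 5.67e-47), followed by DEG, −0.18 (SE 0.031, FDR = 2.94e-05). The rise with RES, 0.09 (SE 0.029, FDR = 0.0476), was lost without any 1 of the 5 libraries compared (FDR 0.0612 to 0.274). The fall with POG, −0.12 (SE 0.029, FDR = 0.00462), was lost without negative control replicate 1 (FDR = 0.0985) or 2 (FDR = 0.066). Between compounds STAT2 was lower with POG than with RES, −0.21 (SE 0.025, FDR = 2.95e-11), and lower with DEG than with RES, −0.27 (SE 0.029, FDR = 1.65e-14).

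IRF9, the DNA-binding subunit of ISGF3, was the exception to the pattern. It was at 13.7 and 11.9 CPM in the negative controls and at 9.57, 10.6 and 8.25 CPM with RES. POG libraries held 12.1, 12.6 and 13.1 CPM, DEG libraries 11.7 and 11.3 and positive controls 7.81 and 9.10. RES, DEG and serum lay below the negative controls without overlap, and POG overlapped them. The difference between DEG and the negative controls was not called. With RES the log2 fold change was −0.43 (SE 0.095, FDR = 1.89e-04), which lost its call without negative control replicate 1 (FDR = 0.0869). With serum it was −0.60 (SE 0.11, FDR = 1.25e-07). Against RES it was higher with POG, 0.41 (SE 0.084, FDR = 1.30e-05), and with DEG, 0.28 (SE 0.096, FDR = 0.0223). The call with DEG was lost without RES replicate 3 (FDR = 0.188), DEG replicate 1 (FDR = 0.181) or DEG replicate 2 (FDR = 0.101). The annotated exons of IRF9 (chromosome 14, 24161234 to 24168043 on the plus strand, GENCODE v44 on hg38) share 1544 bases with those of another gene on the same strand, ENSG00000259529, so reads could have been divided between them.

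IRF7, the factor that amplifies type I interferon production, was at 132 and 129.6 CPM in the negative controls and 97.7 and 91.6 with serum. It fell with serum, −0.46 (SE 0.040, FDR = 9.06e-26), and was lower with POG, −0.16 (SE 0.032, FDR = 3.26e-05), and DEG, −0.22 (SE 0.036, FDR = 3.56e-07), than with RES, where it stood at 136, 136 and 136 CPM. POG held 119.9, 119.9 and 125 CPM and DEG 115 and 118. The fold change with RES was 0.06 (SE 0.036, FDR = 0.398) and did not pass the test. The fall with DEG, −0.17 (SE 0.039, FDR = 0.00272), was lost without negative control replicate 1 (FDR = 0.0783) or DEG replicate 1 (FDR = 0.13). IRF1, a factor induced chiefly by interferon gamma, varied least of the 4. Its annotated exons share 2805 bases with those of IRF1-AS1 and 486 with those of ENSG00000283782, both on the other strand. IRF1 was at 76.9 and 73.2 CPM in the negative controls, 73.1, 74.3 and 74.8 with RES, 68.9, 71.5 and 67.2 with POG, 68.6 and 63.5 with DEG and 67.7 and 63.1 with serum. Only the decrease with serum, −0.20 (SE 0.048, FDR = 3.29e-04), held without any 1 library; its falls with DEG against the negative control, −0.18 (SE 0.048, FDR = 0.00549), and against RES, −0.17 (SE 0.044, FDR = 0.00304), were lost without DEG replicate 2 (FDR = 0.271 and 0.235), and the former also without negative control replicate 1 (FDR = 0.188).

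The IFIT proteins bind viral RNA that lacks the cap of host mRNA and block its translation. IFIT1, IFIT2 and IFIT3 moved in both directions with the compounds. IFIT2 was at 126 and 122 CPM in the negative controls, 148, 153 and 155 with RES, 72.0, 65.6 and 69.1 with POG, 75.9 and 77.7 with DEG and 94.5 and 93.7 with serum. All 5 groups were apart. It rose with RES, 0.30 (SE 0.038, FDR = 3.59e-11), and fell with POG, −0.85 (SE 0.039, FDR = 6.50e-90), with DEG, −0.69 (SE 0.043, FDR = 4.20e-48), and with serum, −0.40 (SE 0.042, FDR = 1.48e-17). POG against RES reached −1.14 (SE 0.035, FDR = 3.02e-208), and DEG against RES −0.99 (SE 0.040, FDR = 1.49e-118).

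IFIT1 was at 97.1 and 94.2 CPM in the negative controls, 116, 112 and 116 with RES, 69.1, 69.6 and 66.5 with POG and 63.8 and 66.3 with DEG. It rose with RES, 0.27 (SE 0.038, FDR = 3.74e-09), and fell with POG, −0.48 (SE 0.038, FDR = 1.03e-29), and DEG, −0.56 (SE 0.043, FDR = 4.59e-31). Serum differed from the compounds here: the positive controls held 95.6 and 92.2 CPM, overlapping the negative controls, with a log2 fold change of −0.03 (95% interval −0.11 to 0.06). IFIT3 was at 198 and 201 CPM in the negative controls, 234, 233 and 241 with RES, 146, 144 and 149.9 with POG, 145 and 142 with DEG and 203 and 197 with serum. Its log2 fold changes were 0.24 (SE 0.032, FDR = 6.88e-10) with RES, −0.44 (SE 0.032, FDR = 1.81e-33) with POG and −0.48 (SE 0.035, FDR = 9.69e-31) with DEG, and the interval with serum was −0.07 to 0.07. IFIT5 did not pass the test with RES or POG, and its fall with DEG was among the calls lost when 1 library was left out (FDR = 0.368 without negative control replicate 1 and 0.347 without DEG replicate 1). IFIT2 and IFIT3 overlap LIPA on the other strand by 65 and 94 exon bases, and the strand setting of the counting is not given in the sources used here.

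RSAD2 (viperin) makes a chain-terminating nucleotide from CTP, and its neighbor CMPK2 supplies the nucleoside triphosphates. RSAD2 (chromosome 2, 6865557 to 6898239, plus strand, hg38) showed the largest fall among the called genes of the list with serum, POG and DEG; SP140, which was not called, had a lower fold change with POG (−1.02, FDR = 0.0563). It was at 32.5 and 33.3 CPM in the negative controls and 42.0, 42.0 and 41.3 with RES. Levels were 16.8, 16.7 and 16.8 CPM with POG, 18.9 and 20.6 with DEG and 16.6 and 15.8 with serum. Every RES library exceeded the negative controls, and every POG, DEG and positive control library lay below them. The log2 fold change was 0.34 (SE 0.052, FDR = 7.51e-09) with RES, −0.97 (SE 0.056, FDR = 1.78e-61) with POG, −0.74 (SE 0.062, FDR = 1.02e-28) with DEG and −1.03 (SE 0.062, FDR = 2.65e-57) with serum. Against RES it was −1.32 (SE 0.049, FDR = 2.21e-154) for POG and −1.08 (SE 0.056, FDR = 2.54e-80) for DEG, so that the level decreased by 59.9% and decreased by 52.8%. CMPK2 was at 34.0 and 32.0 CPM in the negative controls, 43.0, 41.5 and 41.3 with RES, 23.5, 24.2 and 24.1 with POG, 21.4 and 22.7 with DEG and 25.2 and 23.8 with serum. It rose by 0.35 (SE 0.052, FDR = 7.83e-09) with RES, and its log2 fold changes were −0.46 (SE 0.054, FDR = 1.44e-14) with POG and −0.58 (SE 0.061, FDR = 6.46e-18) with DEG. The 2 genes lie on opposite strands of chromosome 2 and share 351 exon bases, and reads of that stretch cannot be assigned to either gene without strand.

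SAMD9, a restriction factor for poxviruses, followed the compounds and not serum. It was at 59.3 and 57.1 CPM in the negative controls, 71.6, 71.8 and 71.1 with RES, 42.7, 40.8 and 41.7 with POG, 42.6 and 40.9 with DEG and 54.5 and 61.3 with serum. The positive and negative controls overlapped, while all other groups were apart from them. Its log2 fold changes were 0.30 (SE 0.046, FDR = 6.46e-08) with RES, −0.48 (SE 0.047, FDR = 5.64e-20) with POG and −0.48 (SE 0.053, FDR = 8.53e-16) with DEG. The paralog SAMD9L was at 37.4 and 37.1 CPM in the negative controls, 47.3, 44.7 and 44.8 with RES, 30.4, 31.5 and 30.8 with POG, 27.5 and 28.2 with DEG and 23.7 and 23.8 with serum. SAMD9L, unlike SAMD9, was lower with serum, −0.65 (SE 0.056, FDR = 4.23e-28); the difference between the paralogs was not tested.

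**Figure D4:**
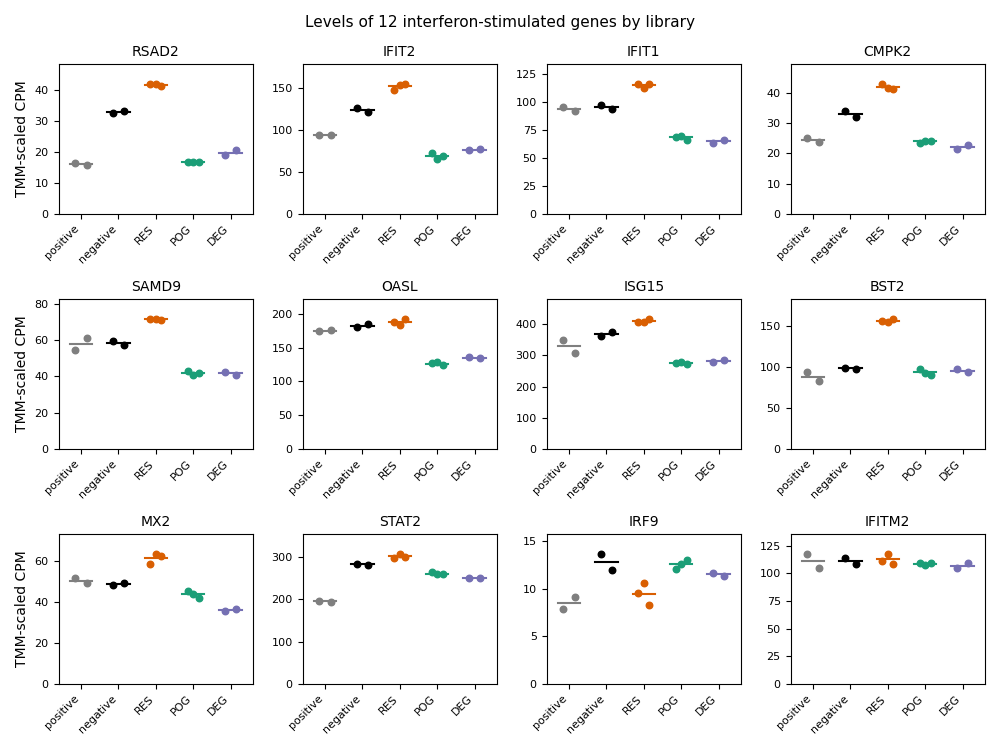
Levels of 12 interferon-stimulated genes in TMM-scaled CPM by group. Each point is 1 library and each line a group mean. RSAD2 runs from 15.8 CPM with serum to 42.1 CPM with RES, and BST2 stands apart in the 3 RES libraries.

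The oligoadenylate synthetases make the second messenger that activates RNase L, which degrades RNA. OAS1, OAS2 and OAS3 rose with RES and fell with POG, DEG and serum. OAS2 was at 147 and 151 CPM in the negative controls, 181, 191 and 180.1 with RES, 130.2, 131 and 131 with POG, 116 and 117 with DEG and 118 and 113 with serum, with log2 fold changes of 0.30 (SE 0.034, FDR = 1.80e-13) for RES and −0.36 (SE 0.038, FDR = 3.39e-15) for DEG. The fall of OAS3 with POG was lost without negative control replicate 1 (FDR = 0.0667) or 2 (FDR = 0.106). OASL, a catalytically inactive relative that enhances RNA sensing, was at 179.7 and 185 CPM in the negative controls, 188, 183 and 192 with RES, 126, 128 and 124 with POG, 136 and 134 with DEG and 174 and 176 with serum. It fell with POG, −0.53 (SE 0.033, FDR = 4.04e-46), and with DEG, −0.44 (SE 0.036, FDR = 8.16e-25). The changes with RES, 0.04 (SE 0.032, FDR = 0.561), and serum, −0.06 (SE 0.036, FDR = 0.227), did not pass the test. Among 9 sensors and RNA-binding effectors, 5 rose with RES (4.94% of all tested genes), 7 fell with POG (8.57%), 6 with DEG (6.11%) and 8 with serum (20.9%). Without negative control replicate 2, the falls with POG numbered 4, since those of IFIH1 (FDR = 0.108) and DDX60L (FDR = 0.345) were lost with that of OAS3. EIF2AK2, the kinase PKR, and ADAR, which edits double-stranded RNA, were called with serum (−0.34 and −0.22) and between DEG and RES (−0.17 and −0.12) and in no other comparison. The call of ADAR between DEG and RES was lost without DEG replicate 1 (FDR = 0.18), and its fold change with serum was −0.14 without positive control replicate 1.

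ISG15 is attached to other proteins by UBE2L6 and HERC5 and removed by USP18, which also shuts off the receptor. ISG15 was at 363 and 374 CPM in the negative controls, 406, 408 and 418 with RES, 275, 280.1 and 271 with POG, 279 and 286 with DEG and 348 and 309 with serum. The RES libraries were highest and the POG and DEG libraries lowest, and POG overlapped DEG. It fell with POG, −0.42 (SE 0.035, FDR = 5.78e-24), and DEG, −0.38 (SE 0.039, FDR = 5.91e-16), and POG against RES was −0.58 (SE 0.031, FDR = 1.90e-56). Its rise with RES, 0.16 (SE 0.035, FDR = 0.00188), was lost without negative control replicate 1 (FDR = 0.127). Its decrease with serum, −0.16 (SE 0.038, FDR = 6.39e-04), was −0.25 without positive control replicate 1 and −0.07 without replicate 2. USP18 was at 36.2 and 35.3 CPM in the negative controls, 44.3, 44.5 and 44.8 with RES, 34.6, 32.8 and 36.9 with POG, 31.9 and 30.8 with DEG and 35.6 and 30.1 with serum. Only RES stood apart on the high side. It rose with RES, 0.32 (SE 0.058, FDR = 5.03e-06), and its change with POG, −0.04, had a 95% interval of −0.16 to 0.08. HERC5 fell with POG, −0.33, with DEG, −0.31, and with serum, −0.33, and did not pass the test with RES (FDR = 0.285).

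BST2 (tetherin) holds budding virus particles at the cell surface. The gene lies on chromosome 19 (17402939 to 17405630, minus strand, hg38). Its level was 156, 154 and 159 CPM with RES and 98.7 and 98.0 in the negative controls. POG libraries held 98.0, 92.9 and 90.7 CPM, DEG libraries 96.9 and 94.0 and positive controls 93.5 and 82.4. The 3 RES libraries exceeded every other library, while POG and DEG libraries lay just below the negative controls. The rise with RES was 0.67 (SE 0.043, FDR = 8.57e-47), or 59.1%, and the largest of the list in that comparison. Against the negative control, the log2 fold change was −0.07 with POG (95% interval −0.16 to 0.02) and −0.04 with DEG (95% interval −0.14 to 0.05). Neither passed the test. The decrease with serum, −0.16 (SE 0.047, FDR = 0.00432), was lost without positive control replicate 2 (FDR = 0.22).

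The IFITM proteins keep enveloped viruses from fusing with the cell. IFITM3 rose with RES, 0.16 (SE 0.029, FDR = 3.17e-04), IFITM1 did not pass the test, 0.02 (SE 0.038, FDR = 0.838), and IFITM2 was the only one of the 53 genes called in none of the 7 comparisons. IFITM2 was at 114 and 108 CPM in the negative controls, 112, 118 and 108 with RES, 109.8, 108 and 109 with POG, 105 and 109.6 with DEG and 118 and 105 with serum, and all groups overlapped the negative control. The 95% interval of its log2 fold change was −0.07 to 0.11 with RES and −0.13 to 0.03 for POG against RES. IFITM1 was lower with serum, −0.40 (SE 0.042, FDR = 2.59e-16). These 3 paralogs are similar in sequence, and the treatment of reads that map to several genes is not given in the sources used here. The division of reads among them is therefore uncertain.

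MX1 and MX2, dynamin-like GTPases that trap viral nucleocapsids, both rose with RES. MX2 was at 48.2 and 49.5 CPM in the negative controls, 58.7, 63.6 and 62.4 with RES, 45.7, 43.8 and 42.1 with POG, 35.4 and 36.5 with DEG and 51.9 and 49.2 with serum. The groups were in the order RES, negative control, POG and DEG without overlap, and serum overlapped the negative control. Its log2 fold change was 0.33 (SE 0.047, FDR = 1.45e-09) with RES and −0.44 (SE 0.055, FDR = 1.16e-12) with DEG. The fall with POG, −0.16 (SE 0.048, FDR = 0.0179), was lost without negative control replicate 1 (FDR = 0.0774) or 2 (FDR = 0.232) and without POG replicate 2 (FDR = 0.0545) or 3 (FDR = 0.13). MX1 was at 454 and 456 CPM in the negative controls, 522, 525 and 523 with RES, 378, 381 and 376 with POG, 339 and 342 with DEG and 380.2 and 357 with serum. It rose by 0.20 (SE 0.028, FDR = 8.05e-08) with RES, and its fold changes were −0.27 (SE 0.028, FDR = 8.51e-14) with POG, −0.42 (SE 0.031, FDR = 1.15e-27) with DEG and −0.30 (SE 0.031, FDR = 1.21e-15) with serum. MX1 shares 562 exon bases with TMPRSS2 on the other strand.

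Of the small inducible genes, all 5 rose with RES (4.94% of all tested genes), 2 fell with POG (8.57%), 3 fell with DEG (6.11%) and 3 were lower with serum (20.9%). Both falls with POG, those of IFI27 (FDR = 0.221) and IFI35 (FDR = 0.0682), were lost without negative control replicate 2. IFI6, an endoplasmic reticulum and mitochondrial protein, was the most abundant of the 53 genes per length, at 893 RPKM (CPM per kilobase of exon) in the negative controls, followed by ISG15 at 425 and IFITM3 at 287. SP140 was the least abundant at 0.116 RPKM. IFI6 rose with RES, 0.28 (SE 0.031, FDR = 2.25e-11), and its 95% intervals were −0.16 to −0.03 with POG and −0.13 to 0.00 with DEG, neither of which passed the adjusted test. IFI27 was at 192 and 202 CPM in the negative controls, 256, 247 and 249 with RES, 178, 182 and 173 with POG, 184 and 184 with DEG and 212 and 188 with serum, and it rose by 0.35 (SE 0.038, FDR = 5.16e-14) with RES. Its fold change with POG was −0.15 (SE 0.038, FDR = 0.00358). IFI44L was among the genes lower with serum. It was at 258 and 263 CPM in the negative controls, 319, 309 and 301 with RES, 253, 245 and 250.5 with POG, 219 and 217 with DEG and 172 and 191 with serum. Its log2 fold change was −0.52 (SE 0.039, FDR = 4.67e-31) with serum and 0.25 (SE 0.036, FDR = 3.33e-08) with RES.

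PARP9 and DTX3L form an ADP-ribosylating ubiquitin ligase, and PARP14 is a related ADP-ribosyltransferase. All 5 genes of this group were lower with serum (20.9% of all tested genes), 3 rose with RES (4.94%), 2 fell with POG (8.57%) and 5 fell with DEG (6.11%). Both falls with POG, those of PARP9 (FDR = 0.0744) and DTX3L (FDR = 0.136), were lost without negative control replicate 1, and the falls with DEG numbered 2 without negative control replicate 2 and 3 without negative control replicate 1, DEG replicate 1 or DEG replicate 2. PARP14 was at 454 and 457 CPM in the negative controls and 282 and 314 with serum, a log2 fold change of −0.61 (SE 0.035, FDR = 3.59e-49). With RES it was at 484, 491 and 479.9 CPM, with POG at 429.6, 436 and 425 and with DEG at 415 and 418. RES and POG did not pass the test (FDR = 0.098 and 0.118). The fall with DEG, −0.13 (SE 0.035, FDR = 0.02), was lost without any 1 of the 4 libraries compared (FDR 0.116 to 0.19). PARP9 and DTX3L share 139 exon bases on opposite strands.

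XAF1, an antagonist of the apoptosis inhibitor XIAP, and TRIM22, an antiviral ubiquitin ligase, were also among the largest decreases with serum. XAF1 was at 67.5 and 60.9 CPM in the negative controls, 75.3, 74.1 and 73.0 with RES, 58.8, 57.0 and 57.5 with POG, 55.4 and 47.6 with DEG and 37.1 and 41.9 with serum, with −0.70 (SE 0.061, FDR = 8.37e-28) for serum. Its rise with RES, 0.21 (SE 0.054, FDR = 0.00367), was 0.14 without negative control replicate 2 (FDR = 0.284), and its fall with DEG, −0.32 (SE 0.061, FDR = 1.45e-05), was −0.21 without DEG replicate 2 (FDR = 0.0501). With POG, −0.15 (SE 0.054, FDR = 0.0419), the call was lost without negative control replicate 1 (FDR = 0.624) or without any 1 POG library (FDR 0.0694 to 0.133). TRIM22 was at 109.7 and 116 CPM in the negative controls, 74.6 and 74.1 with serum and 112, 110.0 and 110.3 with RES, with −0.60 (SE 0.039, FDR = 9.12e-44) for serum and −0.03 (SE 0.035, FDR = 0.741) for RES, which did not pass the test. POG held 104, 102 and 104 CPM and DEG 95.5 and 95.7, and the fall with DEG was −0.24 (SE 0.039, FDR = 8.41e-07). The fall of TRIM22 with POG was lost without negative control replicate 2 (−0.08) and with no filter on low counts (FDR = 0.0508). TRIM22 shares 642 exon bases with OR56B1 and 62 with OR52P1, both on the same strand.

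SP100, SP110 and SP140 encode chromatin readers of nuclear bodies. SP100 was the only one of the 53 genes called higher with serum, at 205 and 205 CPM against 193 and 187 in the negative controls, 0.11 (SE 0.033, FDR = 0.0123). That call was lost without negative control replicate 2 (0.09) and with library totals in place of TMM (0.06, FDR = 0.163). By the exact test it was also lost with no filter on low counts (FDR = 0.0515) and with dispersions from the groups compared (FDR = 0.182). The exons of SP100 share 544 bases with those of HMGB1P3 on the same strand. SP100 was at 218, 219 and 216 CPM with RES, 191, 189.6 and 188 with POG and 184 and 179 with DEG, and it rose with RES, 0.20 (SE 0.030, FDR = 6.90e-07). SP140, known mainly from leukocytes, rested on few reads: 13 and 38 in the negative controls, 48, 41 and 46 with RES, 14, 16 and 13 with POG, 28 and 15 with DEG and 42 and 39 with serum. In CPM, POG and RES were apart, and 1 negative control lay in the range of each. POG against RES was −1.66 (SE 0.35, FDR = 8.03e-06), a call kept in all alternatives that tested the gene. The fold change with RES against the negative control, 0.64, had a 95% interval of −0.10 to 1.37. SP140 and SP110 share 170 exon bases on opposite strands.

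Of the remaining genes, HERC6, a relative of HERC5, rose with RES, 0.25 (SE 0.039, FDR = 1.28e-07), and fell with POG, −0.20 (SE 0.039, FDR = 2.80e-05), and DEG, −0.25 (SE 0.043, FDR = 4.91e-06). LGALS3BP, a secreted galectin-binding glycoprotein, rose with RES, 0.20 (SE 0.027, FDR = 8.02e-08), and fell with POG, −0.16 (SE 0.026, FDR = 2.89e-05), but not by the test with DEG, −0.09 (SE 0.029, FDR = 0.0915). IFIH1 (MDA5), a sensor of long double-stranded RNA, rose with RES, 0.23 (SE 0.042, FDR = 1.40e-05), and so did PARP9, 0.25 (SE 0.035, FDR = 7.65e-09), IFI44, 0.27 (SE 0.033, FDR = 1.35e-11), and PLSCR1, 0.19 (SE 0.030, FDR = 8.26e-07). Over the 7 comparisons, OAS2, IFIT2, MX1, IFI35 and RSAD2 were called in all 7, 15 genes in 6, 15 in 5, 9 in 4, 5 in 3, EIF2AK2 and ADAR in 2, SP140 in 1 and IFITM2 in 0.

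**Figure D5:**
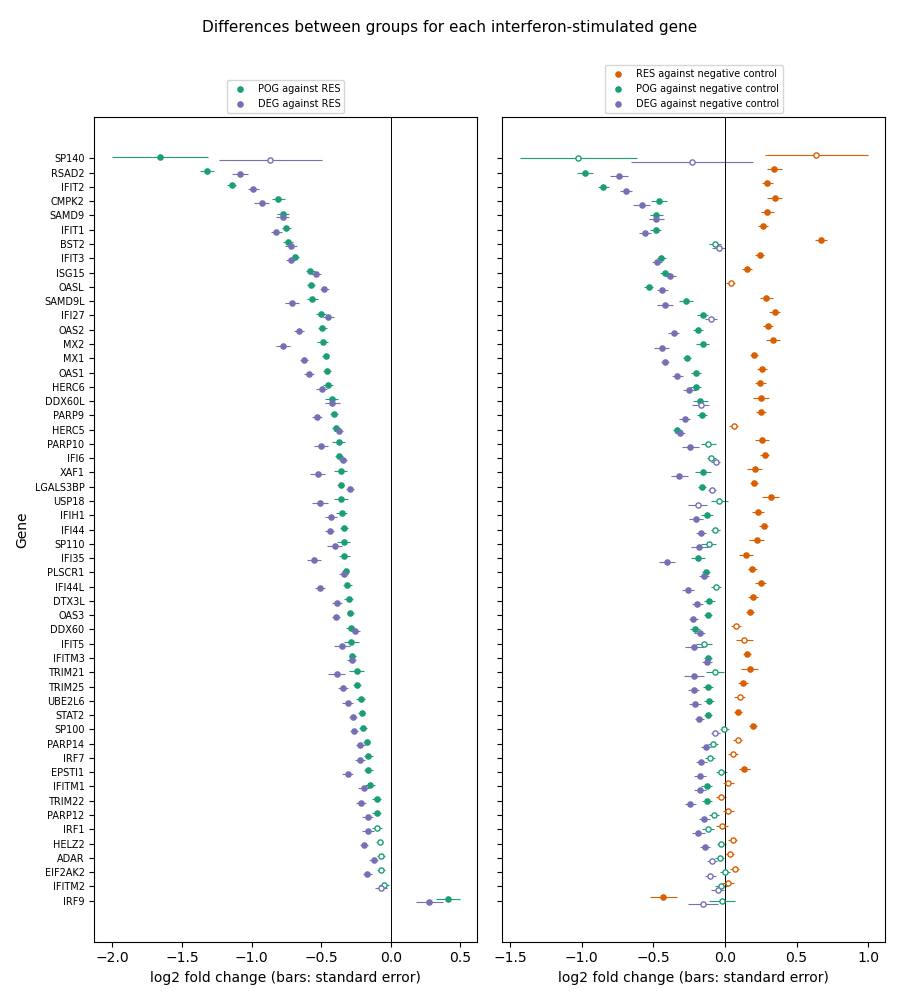
Log2 fold changes of the 53 genes, with bars of 1 SE, for POG and DEG against RES (left) and for RES, POG and DEG against the negative control (right); filled points passed the test and open points did not. BST2 stands at 0.67 with RES and near 0 with POG and DEG, and RSAD2 is the lowest of the called genes with POG at −0.97 and with DEG at −0.74 against the negative control. SP140, an open point, stands at −1.02 with POG.

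POG and DEG, both lower than RES for most of the list, were close to each other, with a median log2 fold change of −0.07 for DEG against POG (0.0001 over all tested genes). In 31 genes both DEG libraries lay below all POG libraries (15.7% of all tested genes), and in 7 above them (16.2%). Of the 45 genes not called between them, those other than SP140 had log2 fold changes of −0.16 to 0.10 for DEG against POG. The 95% interval was −0.04 to 0.11 for ISG15, −0.15 to 0.01 for IFIT1, −0.10 to 0.03 for IFIT3, −0.10 to 0.10 for SAMD9 and −0.06 to 0.11 for BST2. Higher with DEG were RSAD2, 0.23 (SE 0.060, FDR = 0.0252), and IFIT2, 0.16 (SE 0.040, FDR = 0.036). Lower with DEG were MX2, −0.29 (SE 0.050, FDR = 3.77e-05), IFI35, −0.22 (SE 0.049, FDR = 0.0051), IFI44L, −0.20 (SE 0.036, FDR = 5.46e-04), OAS2, −0.17 (SE 0.035, FDR = 0.00439), MX1, −0.15 (SE 0.028, FDR = 0.00191), and EPSTI1, −0.15 (SE 0.038, FDR = 0.0299). IFI35 was at 39.1, 37.9 and 39.3 CPM with POG, 32.5 and 34.2 with DEG, 43.8 and 44.5 in the negative controls, 48.6, 49.9 and 48.1 with RES and 34.7 and 32.9 with serum. EPSTI1 was at 98.7, 97.7 and 100.2 CPM with POG, 87.8 and 90.5 with DEG, 101 and 99.9 in the negative controls, 112, 108 and 112 with RES and 81.4 and 76.6 with serum. Without DEG replicate 1 none of the 8 was called (FDR 0.0538 to 0.473), and without DEG replicate 2 MX2 was the only one called. RSAD2 was also lost without any 1 POG library (FDR 0.0805 to 0.0964), EPSTI1 likewise (FDR 0.0836 to 0.171), and IFIT2 without POG replicate 2 (FDR = 0.307) or 3 (FDR = 0.13).

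Other genes of the interferon pathway were counted from a list of 50, of which 42 passed the filter. With RES, 6 rose (14.3% of the 42, against 4.94% of all tested genes) and 1 fell (2.38% against 6.21%). With POG, 1 rose (2.38% against 5.93%) and 11 fell (26.2% against 8.57%). With DEG, 1 rose (2.38% against 3.52%) and 10 fell (23.8% against 6.11%). With serum, 6 were higher (14.3% against 21.4%) and 17 lower (40.5% against 20.9%). These counts moved when 1 library was left out. The rises with RES numbered 2 without negative control replicate 1 and 4 to 7 without another library, and the fall with RES was lost without either negative control, RES replicate 1 or RES replicate 3. The falls with POG numbered 6 without negative control replicate 2, 7 without negative control replicate 1, POG replicate 1 or POG replicate 2, and 9 without POG replicate 3. The rise with DEG was lost without any 1 of its 4 libraries. The decreases with serum numbered 11 without negative control replicate 1 and 12 to 17 without another library. IFNB1, the gene of interferon beta, had 9 and 10 reads in the negative controls, 4, 17 and 6 with RES, 3, 3 and 5 with POG, 2 and 2 with DEG and 4 and 1 with serum. Its decrease with serum, −2.10 (SE 0.83, FDR = 0.0205), was lost without any 1 of the 4 libraries (FDR 0.0698 to 0.231), and without positive control replicate 1 its log2 fold change was −3.19. IFNA1, IFNA2, IFNK, IFNG, IFNL1, IFNL2 and IFNL3 were below the filter. The receptor genes IFNAR2, IFNGR1 and IL10RB and the kinase JAK1 were called in no comparison. Of the other receptor genes, IFNAR1, −0.16 (SE 0.045, FDR = 0.00341), and IFNLR1, −0.65 (SE 0.091, FDR = 3.73e-11), were lower with serum. The decrease of IFNAR1 was lost without negative control replicate 2 (−0.14). Falls of IFNAR1 with POG and with DEG and the rise of IFNGR2 with DEG were lost without any 1 library compared.

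DDX58 (RIG-I), a sensor of viral RNA, rose with RES, 0.24 (SE 0.037, FDR = 3.79e-07), and fell with DEG, −0.22 (SE 0.042, FDR = 6.87e-05). DDX58 also fell with POG, a call lost without negative control replicate 1 (−0.15). With serum it was at 102.0 and 113.0 CPM, below the negative controls at 129.7 and 128.8. STING1, the adaptor of DNA sensing, rose with RES, 0.25 (SE 0.042, FDR = 1.28e-06), at 134, 135 and 134 CPM against 107 and 119 in the negative controls. IKBKE, a kinase that activates IRF3 and IRF7, fell with POG, −0.47 (SE 0.076, FDR = 5.17e-08), and DEG, −0.67 (SE 0.086, FDR = 1.94e-12). IRF3 itself was higher with POG than with RES, 0.27 (SE 0.034, FDR = 2.52e-12).

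Among 8 genes that respond chiefly to interferon gamma, 4 rose with RES (4.94% of all tested genes), 3 fell with POG (8.57%), 4 fell with DEG (6.11%) and 8 were lower with DEG than with RES (10.8%). The rises with RES, those of GBP3, GBP4, GBP5 and WARS1, numbered 0 without negative control replicate 1 (FDR 0.078 to 0.208) and 2 without negative control replicate 2 or RES replicate 1. Of the 8 calls for DEG against RES, that of CIITA, at an FDR of 0.0496, was lost without any 1 of 4 libraries. These were RES replicate 2 (FDR = 0.158), RES replicate 3 (FDR = 0.112) and DEG replicates 1 and 2 (log2 fold changes −0.67 and −0.72). The call of GBP2 for DEG against RES was lost without DEG replicate 2 (−0.23). Its fall with DEG against the negative control was lost without negative control replicate 2 (−0.30) or DEG replicate 2 (−0.29). IDO1, which degrades tryptophan, was at 8.70 and 12.0 CPM in the negative controls, 10.4, 9.21 and 10.8 with RES, 6.26, 5.83 and 5.63 with POG, 5.71 and 6.08 with DEG and 3.28 and 3.72 with serum. RES overlapped the negative controls, and the other groups lay below them. It fell with serum, −1.57 (SE 0.14, FDR = 1.34e-28), with POG, −0.81 (SE 0.11, FDR = 2.36e-10), and with DEG, −0.81 (SE 0.13, FDR = 4.56e-08). The GTPase gene GBP1 fell with POG, −0.31 (SE 0.045, FDR = 3.46e-09), and DEG, −0.30 (SE 0.050, FDR = 5.30e-07), and WARS1, a tRNA synthetase gene, did so by −0.32 (SE 0.039, FDR = 1.45e-12) and −0.32 (SE 0.043, FDR = 5.20e-10).

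Marker genes were examined to check the labelled cell type. COL1A1, COL1A2, SPARC and RUNX2 were expressed in all libraries. The 8 osteoblast markers summed to 4748.5 to 5519.7 CPM, nearly all of it COL1A1, COL1A2 and SPARC. ALPL was at 3.22 to 6.66 CPM and BGLAP at 0.425 to 2.00 CPM. IBSP was at 0 in all libraries but 1, and SP7 at 0.181 CPM or less. The 7 leukocyte markers summed to 1.26 to 1.39 CPM in the negative controls, 1.85 to 2.00 with RES, 0.748 to 1.42 with POG, 1.2 to 1.39 with DEG and 1.97 to 1.98 with serum, with CD3E and MS4A1 at 0 throughout. The 3 endothelial markers summed to 1.33 to 3.25 CPM, and CDH5 was at 0 to 0.112 CPM. The 3 epithelial markers summed to 153 to 221 CPM, nearly all of it KRT18, with CDH1 and EPCAM at 0.545 CPM or less. KRT18 was at 183.6 and 189.3 CPM in the negative controls, 202.6 to 209.6 with RES, 152.8 to 159.9 with POG, 169.7 and 173.7 with DEG and 201.5 and 220.3 with serum. The part of these markers in the results was not tested.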

How the data were processed

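Polyadenylated mRNA of hFOB cells was sequenced with paired ends on a NovaSeq instrument after library preparation with a NuGen Universal Plus kit. The authors aligned reads to hg38 with STAR (BWA MEM is named as well), counted them on Ensembl genes with featureCounts and deposited raw counts per gene, not normalized. Versions, the strand setting and how multi-mapped reads were handled are not given in the sources used here. Library totals were 38464619 to 51416358 counts. Every column belonged to a labelled sample. DEG replicate 3 was not analysed here, so 12 of 13 labelled samples were used, while the design had counted on all of them. Replicate numbers follow accession order and serve only as names. The labels give no batch or date.

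Symbols matched 43214 of 43836 identifiers. filterByExpr by group (minimum count 10) kept 17092 genes with 99.967% of the reads. Counts were tested with edgeR 4.0.16 in R 4.3.3: TMM scaling, dispersions over all 12 libraries (common biological coefficient of variation 3.21%), the exact test the authors name, and Benjamini-Hochberg adjustment over all tested genes. SEs and 95% intervals came from the quasi-likelihood fit. RPKM is TMM-scaled CPM divided by the merged exon length in kilobases from GENCODE v44. The script was tested on simulated data. Promoters came from RefSeq (GRCh38.p14), and matches were counted without a test.

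Genes given in every library were, per comparison, the 5 largest rises and 5 largest falls among called members averaging 1 CPM or more in at least 1 of the groups, further STAT2, IRF9, IRF1, IRF7, ISG15, USP18 and SP140; others are given by fold or count. The members, lists and tests were chosen with earlier results of these data known. The alternatives were DESeq2 1.42.0, the quasi-likelihood test of edgeR, scaling by DESeq2 size factors or by library totals, all genes without a count filter, genes averaging 1 CPM or more, dispersions estimated within the compared groups, and leaving out each library. The same alternatives for the other pathway genes, and group counts without each library, were added after seeing the data. Some pathway genes enter the counts but are not reported by name here.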

Additional observations from a re-analysis of the deposited data

How the results depend on the processing

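No call of an interferon-stimulated gene changed direction in any alternative. Of 4389 gene values under an alternative, 4127 kept their side of the threshold, 191 lost their call and 71 gained one. Genes called in neither setting could change sign among the 4127. With library totals in place of TMM, for example, 3 genes lay above 0 with POG. Of the calls, 34 of 39 with serum, 27 of 37 with RES, 16 of 32 with POG, 24 of 41 with DEG, 46 of 48 for POG against RES, 47 of 51 for DEG against RES and 0 of 8 for DEG against POG were kept in every alternative. With 1 library left out, the genes called numbered 39 to 41 with serum, 30 to 34 with RES, 19 to 28 with POG, 29 to 33 with DEG, 46 to 48 for POG against RES, 48 to 51 for DEG against RES and 1 to 6 for DEG against POG. For DEG against POG, the quasi-likelihood test called 5, no filter on low counts 5 and dispersions from the groups compared 21, and the calls over all genes were 103, 116 and 838 in place of 179. Leaving out a library leaves some groups with 1, whose spread is then taken from the other groups. The cause of these changes was not tested. No paired analysis was possible because the labels give no replicate numbers that groups share. Groups of 2 or 3 libraries limit the precision, and for SP140 and IFNB1 the small number of reads does.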

Other observations

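Members with and without the core of the response element in their promoter window had similar fold changes. The median log2 fold change for POG against RES was −0.33 in the 26 genes with the core and −0.33 in the 18 without it. For RES against the negative control the medians were 0.19 and 0.20, for DEG against the negative control −0.18 and −0.22, and for serum −0.23 and −0.30. RSAD2 and CMPK2, both among the largest falls with POG and DEG, and IRF9 had no match in their windows, while BST2, IFIT1 and IFIT3 had 2 each.

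Serum and the compounds can be set side by side over libraries that the comparisons do not share. Across the 53 genes, the log2 fold changes with serum had a Pearson correlation of −0.17 with those of POG against RES and −0.03 with those of DEG against RES, and over all 17092 tested genes the values were −0.11 and −0.07. Genes are not independent replicates, so these correlations across genes are only a description. IFIT1, IFIT3 and SAMD9 were lower with POG and DEG and did not pass the test with serum. PARP14, TRIM22 and EIF2AK2 were lower with serum. Of these, PARP14 also fell with DEG (−0.13) and TRIM22 with POG (−0.13) and DEG (−0.24). The falls of PARP14 with DEG and of TRIM22 with POG were lost without negative control replicate 2 (−0.12 and −0.08). Whether these responses differ was not tested.

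Interferon epsilon, encoded by IFNE, was the only interferon gene above 1 CPM. It was at 2.01 and 2.14 CPM in the negative controls, 2.04, 1.52 and 2.42 with RES, 3.72 and 3.46 with serum, 1.18, 1.27 and 1.53 with POG and 1.47 and 1.35 with DEG. It was higher with serum, with a log2 fold change of 0.79 (FDR = 0.000394 by edgeR's exact test). With RES the log2 fold change was −0.06 (FDR = 0.937). Its fall with POG against the negative control (−0.65, FDR = 0.0179) was lost without negative control replicate 1 (FDR = 0.0799) or 2 (FDR = 0.16) and without POG replicate 1 (FDR = 0.0899) or 2 (FDR = 0.0611).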
